A study of Mus musculus with 5 samples.

Results

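Mitochondrial genes of 6 kinds were examined at the level of cassette exons, exons that are present in some transcripts of a gene and left out of others. The members are all exon events measured in every one of 6 pairwise tables whose gene symbol begins with Nduf, Sdh, Uqcr, Cox plus a digit, Atp5, Mrpl, Mrps, Timm, Tomm or Slc25. There were 120 such events of 85 gene symbols among 6331 events in all. Of these, 72 carry the symbol in the deposited tables and 48 were named by matching exon and intron lengths to a mouse annotation. Events of 1 gene can share reads, and 26 symbols hold 61 of the events. The COX4AL event belongs by its Ensembl gene to Emc8, a neighbour of Cox4i1, and the Atp5o event matches the lengths of Cryzl1. Both are counted by their symbol, and neither speaks for a respiratory subunit.

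RNA came from the left ventricle of C57BL/6 mice. Control mice (2 samples) were injected with citrate buffer and STZ mice (3 samples) with streptozotocin at 70 mg/kg, which destroys the insulin-producing beta cells. Both groups were injected daily for 5 days from 8 weeks of age and sampled at 12 weeks. Values are listed with the Control libraries (A, B) first and the STZ libraries (A, B, C) after them.

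The respiratory chain passes electrons through complexes I to IV of the inner mitochondrial membrane and pumps protons, and complex V uses the proton gradient to make ATP. Most subunits are encoded in the nucleus, made in the cytosol and brought in through the TOM complex of the outer and the TIM complexes of the inner membrane. Mitochondrial ribosomes translate the few subunits encoded by the mitochondrial genome, and SLC25 carriers move phosphate, nucleotides, amino acids and cofactors across the inner membrane. The beating heart depends on this machinery for nearly all of its ATP.

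The libraries held between 12692236 and 20963751 reads on all events, and members held between 6.95% and 8.80% of the reads that fit an isoform. The tables use library codes, so group membership was read from group size (2 or 3), and the codes follow 1 naming pattern in Control and another in STZ. The code pattern and STZ therefore cannot be told apart for any result below. The labels do not state that each sample is a separate animal, so p-values measure only the spread between these samples. In the marker lists, 5 of 15 cardiomyocyte genes had an event and their summed event reads were 130565 and 129322 RPM (reads per 1000000 reads that fit an isoform of any event in the library) in Control and 68275, 61391 and 61200 RPM in STZ. Single events of that list went both ways: of 10 fitted events 2 were called higher and 2 lower, with a median log2 change of -0.08 (0.09 with size factors). The endothelial list was measured by Pecam1 alone of 6 genes, at 1931 and 1726 RPM in Control and 4415, 5529 and 7232 in STZ. The fibroblast and matrix list (2 of 7 genes) summed to 108 and 127 against 90.1, 58.5 and 85.9 RPM, the smooth muscle list (3 of 5 genes) to 452 and 445 against 540, 449 and 576, and the leukocyte list (2 of 6 genes) to 65.2 and 67.2 against 105, 58.0 and 121. The skeletal muscle list (2 of 6 genes) rested on Acta1, since Tnnt3 was at 0, and summed to 190 and 143 against 38.2, 13.4 and 8.31 RPM. None of the 4 atrial or 4 fat genes listed had an event. The part of these shifts in the results below was not tested.

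The mitochondrial exons were mostly fixed in one state. Psi, the share of transcripts that include the exon as the authors deposited it, was at least 0.95 in all 5 libraries for 43 of the 109 member events with enough reads to test (39.4%), and at most 0.05 in all 5 for 26 (23.9%). Over all 4769 tested events these shares were 18.2% and 10.4%. The members were also deeply read, with a median of 610 informative reads (reads that fit only 1 of the isoforms) in the lowest library against 79 over all events. Position in the transcript went with the state. Of 57 tested exons annotated as coding, 42 were at Psi of at least 0.90 in every library. Of 12 tested exons annotated only in transcripts subject to nonsense-mediated decay, the pathway that removes mRNAs with an early stop codon, 9 were at 0.10 or below in every library. Of 11 found only in transcripts without a coding sequence, 7 were at or below 0.10. Among the 60 coding events, 19 had a length divisible by 3.

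Psi differed between the groups for few of these exons. At an adjusted p below 0.05 in limma on logit Psi, 6 of 109 members were called, 2 higher and 4 lower in STZ, where 15% of all tested events were called (4.84% higher and 10.1% lower). The members' median difference in Psi was 0, against -0.01 over all tested events, and their median absolute difference was 0.01 against 0.035. Groups did not overlap in 27 members, or 24.8%, compared with 42.9% of the tested events at large. A looser rule (unadjusted limma p below 0.05 with a difference of at least 0.10) was met by 5 members, or 4.59%, against 18.7% of all tested events. Under the rule applied to the authors' deposited tables, a difference of at least 0.20 in one direction with a Bayes factor no lower than 10 in each of the 6 tables, no member passed, where 3.22% of all events did. At an unadjusted limma p below 0.05 there were 18 of the 109 members and 1527 of the 4769 tested events. Without STZ B 1 member was called, and without STZ C 2 were. A fit with 1 library fewer has less power, so a lost call does not by itself show that it rested on that library.

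**Figure D1:**
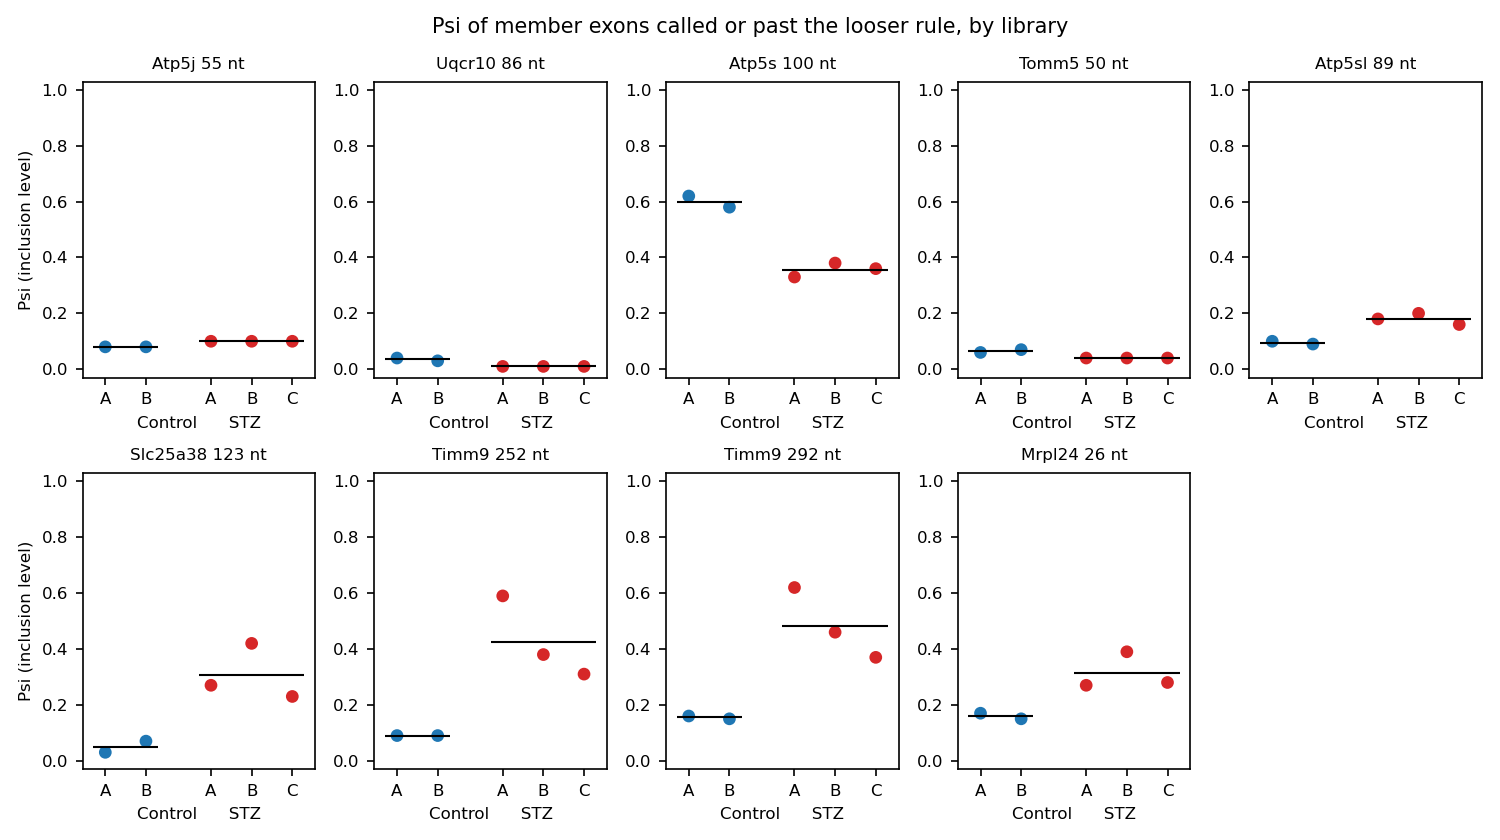
Psi of 9 exons that were called or met the looser rule (vertical axis, 0 to 1) in each Control (blue) and STZ (red) library, with a black line at each group mean. The groups are apart in all 9 panels, by 0.02 in Atp5j and by 0.337 in the 252-nt exon of Timm9.

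Genes with an Atp5 symbol held 3 of the 6 calls. Atp5s encodes a protein once named factor B of ATP synthase and now Dmac2l. Its 100-nt exon at chr12:70826442-70826541 (mm9) lies in the 5' UTR. Psi there was 0.62 and 0.58 in Control and 0.33, 0.38 and 0.36 in STZ, with no overlap. The group means were 0.60 ± 0.03 (SD, n = 2) and 0.36 ± 0.03 (SD, n = 3), and limma gave an adjusted p = 0.0189. This was the only call with a difference of at least 0.10. The raw read share of inclusion moved the same way, from 88.7% and 87.2% to 70.4%, 75.7% and 75.9%, but its log ratio did not pass (limma adjusted p = 0.061). Most reads of this event fit neither isoform: 88.5% and 87.5% in Control and 88.1%, 72.6% and 75.3% in STZ. The lowest library had 54 informative reads. The Psi call of Atp5s was lost when Control A, Control B, STZ B or STZ C was left out. A separate 111-nt exon of Atp5s, coding in part, had Psi of 0.69, 0.64, 0.54, 0.71 and 0.79, with overlapping groups.

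Atp5sl, now named Dmac2, is an assembly factor of complex I in spite of its symbol. Its 89-nt exon at chr7:26406443-26406531 (mm9) is annotated only in a transcript subject to nonsense-mediated decay. Psi was 0.10 and 0.09 in Control and 0.18, 0.20 and 0.16 in STZ (logit change 0.74 ± 0.11 SE, limma adjusted p = 0.0338), and the groups did not overlap. Leaving out any single library ended this call. Total event reads of Atp5sl were called lower, at 191 and 178 RPM against 103, 77 and 83.5 (limma adjusted p = 0.0013). The same kind of exon was measured in Slc25a38, which encodes the carrier that brings glycine into mitochondria for heme synthesis. Its 123-nt exon at chr9:120029001-120029123 (mm9) had Psi of 0.03 and 0.07 in Control and 0.27, 0.42 and 0.23 in STZ. Inclusion-only reads were 9 and 22 of 46 and 78 informative reads in Control, and 29 of 46, 27 of 32 and 19 of 28 in STZ. Between 84.3% and 87.0% of the reads of this event fit neither isoform in each library. This exon missed the threshold on Psi (logit change 2.19 ± 0.44 SE, limma adjusted p = 0.0556) and passed on the log ratio of reads (limma adjusted p = 0.0267). Event reads of Slc25a38 were called lower (limma adjusted p = 0.0319, and limma adjusted p = 0.0492 with size factors). That call was lost without STZ B or STZ C, among others. A link between the exon and the event reads was not tested in either gene. The exons are printed, from their first base to the stop codon that the annotated frame meets in them, to show where reading would end. Sequences here and below were read from the GENCODE M21 transcripts (GRCm38), matched on lengths, and capitals mark the stop codon.
Slc25a38 123 nt exon: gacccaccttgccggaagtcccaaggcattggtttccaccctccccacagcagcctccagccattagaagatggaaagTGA
Atp5sl 89 nt exon: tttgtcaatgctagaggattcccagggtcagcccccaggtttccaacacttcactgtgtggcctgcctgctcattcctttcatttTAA

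Atp5j encodes coupling factor 6 of the complex V stalk. Its 55-nt 5' UTR exon had Psi of 0.08 and 0.08 in Control and 0.10 in each STZ library (limma adjusted p = 0.000141), the smallest p of the members. Because Psi is deposited to 2 decimals, each group had a spread of 0 here. Read shares were 8.73% and 8.84% against 11%, 11.3% and 11.8%, and the log ratio of reads did not pass (limma adjusted p = 0.352). The Atp5j call held without each library in turn, which adds little, since the rounded values are equal within each group. Atp5c1 encodes the gamma subunit that turns inside the catalytic head, and its 37-nt exon is known to be left out in muscle. Psi of that exon was 0.04 or 0.05 in every library, with overlapping groups.

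Uqcr10 encodes a small subunit of complex III. Its 86-nt exon, found only in a transcript without a coding sequence, had Psi of 0.04 and 0.03 in Control and 0.01 in each STZ library (logit change -1.27 ± 0.10 SE, limma adjusted p = 0.011). The STZ values lie at the lower limit of 0.01 set for the fit, so the logit change and its SE depend on that limit and on rounding. Reads showed the same fall, with inclusion-only shares of 8.67% and 6.86% against 3.43%, 3.33% and 3.35% (log ratio -0.87 ± 0.21 SE, limma adjusted p = 0.0398). This exon was called by both measures, and its Psi call was lost without STZ B or STZ C.

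Tomm5 encodes a small subunit of the TOM complex. Its 50-nt exon at chr4:45119711-45119760 (mm9), annotated as coding in 1 alternative transcript, had Psi of 0.06 and 0.07 in Control and 0.04 in each STZ library (limma adjusted p = 0.0198). Rounding of Psi left no spread in STZ here either. The log ratio of reads missed the threshold (limma adjusted p = 0.144), and leaving out any single STZ library ended the Psi call. The exon is printed because its letters resemble the B1 family of short interspersed repeats, which often gives rise to low-inclusion exons in mouse genes.
Tomm5 50 nt exon: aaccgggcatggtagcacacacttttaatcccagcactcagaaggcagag

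Timm9 encodes one of the small TIM chaperones that escort carrier proteins across the space between the membranes. Events of its 5' UTR use 3 versions of 1 exon that share an end (136, 252 and 292 nt, at chr12:72233494-72233785 in mm9 for the longest), and they share reads. Psi of the 252-nt version was 0.09 and 0.09 in Control and 0.59, 0.38 and 0.31 in STZ, and that of the 292-nt version was 0.16 and 0.15 against 0.62, 0.46 and 0.37. These were the largest differences among tested members. Both versions missed the threshold on Psi (limma adjusted p = 0.058 and limma adjusted p = 0.0662) and passed on the log ratio of reads (limma adjusted p = 0.0304 and limma adjusted p = 0.0138). The informative reads were few: in the 292-nt event, 20 of 64 and 22 of 88 reads were inclusion-only in Control, and 37 of 50, 20 of 25 and 15 of 21 in STZ. The 136-nt version was not tested for want of reads and had Psi of 0.08, 0.10, 0.57, 0.36 and 0.20. A further 86-nt 5' UTR exon of Timm9 had Psi of 0.75 and 0.93 against 0.57, 0.76 and 0.66, with overlapping groups.

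In the large ribosomal subunit no exon was called on Psi. Mrpl24 has a 26-nt 5' UTR exon with Psi of 0.17 and 0.15 in Control and 0.27, 0.39 and 0.28 in STZ, which met the looser rule only (limma adjusted p = 0.0825). Mrpl15 has a 155-nt coding exon at chr1:4774032-4774186 (mm9) with Psi of 0.94 and 0.97 against 0.87, 0.84 and 0.86 (limma adjusted p = 0.0539). Its exclusion-only reads rose from 18 and 7 to 49, 32 and 28 while inclusion-only reads went from 2381 and 2929 to 1696, 1411 and 1125, and the log ratio passed (-1.75 ± 0.36 SE, limma adjusted p = 0.0274). Skipping this exon shifts the reading frame. The exon is printed with the junction its skipping makes: 12 bases of the exon before it, then the exon after it up to the first stop codon in frame, in capitals. Reading would end after 52 codons in place of 295.
Mrpl15 155 nt exon: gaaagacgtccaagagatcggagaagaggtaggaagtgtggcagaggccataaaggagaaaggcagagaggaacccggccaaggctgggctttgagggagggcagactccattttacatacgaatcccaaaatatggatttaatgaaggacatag
Mrpl15 skip junction: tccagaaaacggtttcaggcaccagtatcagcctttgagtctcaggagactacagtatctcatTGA

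A comparable rise of rare skipping reads was seen in coding exons of Ndufa6 and Atp5d. The log ratio of inclusion-only to exclusion-only reads, with 0.5 added to each, called 17 of 109 members, 5 higher and 12 lower, where 20.3% of all tested events were called (6.56% higher and 13.7% lower). Such calls were thus no more common among members than over all events. Ndufa6 encodes an accessory subunit of complex I, and its 116-nt coding exon had exclusion-only reads numbering 94 and 92 in the Control libraries against 288, 260 and 220 in STZ. Its inclusion-only reads numbered between 15711 and 24571, so that the inclusion share was 99.5% and 99.6% against 98.2%, 98.7% and 98.7% (log ratio -1.24 ± 0.24 SE, limma adjusted p = 0.0237). Atp5d encodes the delta subunit of the complex V stalk, and its 89-nt coding exon had 24 and 37 exclusion-only reads against 54, 117 and 95 (log ratio -1.34 ± 0.25 SE, limma adjusted p = 0.0213). Psi of these exons moved by less than 0.03 and was not called. Reads that fit neither isoform went from 15.6% and 14.9% to 7.14%, 6.48% and 7.07% of the reads in Ndufa6. In Atp5d they went from 14.8% and 13.8% to 12.3%, 10.3% and 10.9%. The part of this in the log ratios was not tested. Both skipping products lose the frame, and the junctions are printed in the same manner as for Mrpl15. Reading would end after 72 of 131 codons in Ndufa6 and after 121 of 168 in Atp5d.
Ndufa6 skip junction: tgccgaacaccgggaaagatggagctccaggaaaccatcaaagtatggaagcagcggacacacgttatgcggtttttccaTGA
Atp5d skip junction: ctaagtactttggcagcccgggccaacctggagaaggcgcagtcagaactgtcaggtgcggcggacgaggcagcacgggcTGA

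The log ratio moves with read number where 1 class is empty. Uqcrc2 (150 nt) had no exclusion-only read and Mrpl4 (24 nt) no inclusion-only read in any library, and both were called, so these calls follow the number of reads alone by construction. In 4 of the 17 called exons, those 2 included, the rarer class had under 10 reads over all libraries. The other 2 of these 4 were called lower in STZ. Mrps18b (60 nt) had 6 exclusion-only reads over all libraries. Slc25a13 (140 nt) had 3 in Control and 3 in STZ, while its inclusion-only reads summed to 4262 and 658, so its call also moves with read number. Further calls lower in STZ were in Atp5l (161 nt), Cox17 (55 nt), Mrps18c (58 nt) and Ndufa7 (107 nt), and Mrpl42 (47 nt) was called higher. In Mrps18c, STZ B held 22 of the 26 exclusion-only reads.

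**Figure D2:**
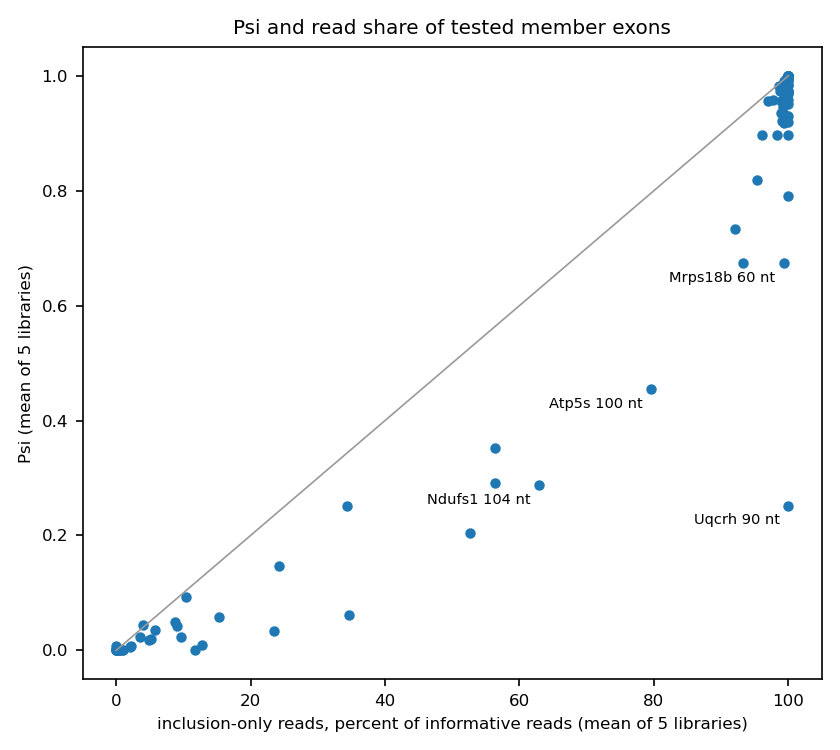
Psi (vertical axis) against the percent of informative reads that fit only inclusion (horizontal axis), both as means over 5 libraries, for the 109 tested member exons, with a line where the measures would be equal. Most exons lie at the ends, and the 90-nt exon of Uqcrh stands far below the line at Psi of 0.252.

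In 4 exons, Psi and the share of reads differed by at least 0.20 in every library. The 90-nt exon of Uqcrh, the hinge protein of complex III, had Psi between 0.24 and 0.27 while 25362 reads over the libraries fitted only inclusion and 2 only exclusion. The 60-nt exon of Mrps18b had 952 inclusion-only and 6 exclusion-only reads at a mean Psi of 0.674. The other two were the 104-nt exon of Ndufs1 and the 100-nt exon of Atp5s. Longer exons collect more inclusion-only reads per transcript, which MISO corrects for, so that a read share above Psi is the usual direction. The 1092-nt coding exon of Ndufv3, a complex I subunit with a short and a long form, had Psi of 0.01 in every library with between 854 and 2055 inclusion-only reads. The cause of the Uqcrh and Mrps18b gaps was not tested.

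Slc25a3 encodes the mitochondrial phosphate carrier, which supplies complex V with phosphate, and its transcripts carry 1 of 2 alternative exons. The event at chr10:90584667-90584788 (mm9) counts a 122-nt exon as the cassette and a 125-nt exon as its upstream neighbour. In the annotation the exons stand in different transcripts, so inclusion-only reads come from the 122-nt form and exclusion-only reads from the 125-nt form. The exons are printed with the bases they share in a global alignment in capitals: 77 bases, or 63.1% of the shorter exon.
Slc25a3 125 nt exon: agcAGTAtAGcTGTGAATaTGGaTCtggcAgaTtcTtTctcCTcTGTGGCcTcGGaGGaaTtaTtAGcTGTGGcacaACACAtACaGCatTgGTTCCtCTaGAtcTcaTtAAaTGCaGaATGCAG
Slc25a3 122 nt exon: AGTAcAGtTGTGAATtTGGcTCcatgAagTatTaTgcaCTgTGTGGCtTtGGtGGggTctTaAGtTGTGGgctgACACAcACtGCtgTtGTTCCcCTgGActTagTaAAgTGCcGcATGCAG

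Reads of the 122-nt form numbered 829 and 1074 in Control and 1332, 1154 and 1295 in STZ, and those of the 125-nt form 4457 and 5441 against 4664, 2764 and 2600. The 122-nt form made up 15.7% and 16.5% of these reads in Control and 22.2%, 29.5% and 33.2% in STZ, without overlap. Neither the log ratio (0.71, limma adjusted p = 0.099) nor Psi (0.02 and 0.02 against 0.03, 0.05 and 0.05, limma adjusted p = 0.0977) passed the threshold.

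In the remaining roles, the exon with the most informative reads had Psi near 0 or 1 in every library, where values to 2 decimals and the limits of 0.01 and 0.99 leave little room to show a difference. In complex II, the 134-nt exon of Sdhb, the iron-sulfur subunit, had Psi of 1 in every library. In complex IV, the 100-nt exon of Cox5b was at 1 in every library, as was the 162-nt exon of Uqcrh in complex III. In complex V, the 161-nt exon of Atp5l, subunit g of the membrane part, was at 0.98 or 0.99, while its exclusion-only reads were 34 and 61 in Control against 114, 104 and 108 in STZ (log ratio lower, limma adjusted p = 0.0438). Reads that fit neither isoform went from 9.13% and 7.93% to 4.42%, 4.32% and 4.54% of the Atp5l reads. The 167-nt exon of Mrpl42 was at 0.98 or 0.99, the 188-nt exon of Mrps36 at 1 and the 115-nt exon of Timm10 between 0.95 and 0.98. The 179-nt exon of Tomm5 was at 0 in every library and the 41-nt exon of Ndufaf2, a complex I assembly factor, between 0.96 and 0.99. Of untested members, the 3-nt exon of Slc25a13 had Psi of 0.05 and 0.07 against 0.51, 0.46 and 0.35. That exon had 15 and 12 informative reads in Control and 0 in each STZ library, so its STZ values rest on no informative read.

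Event reads, the RPM of reads that fit at least 1 isoform of an event, served as a measure of how much RNA of a gene was present. Lower event reads were common among members. Of 118 fitted events, 62 were called by limma at an adjusted p below 0.05, 61 lower and 1 higher in STZ, where 46.9% of all 5935 fitted events were called (28.9% lower and 17.9% higher). The 61 events belong to 41 of the 83 genes with a fitted event. The members' median change was -0.52 on the log2 scale (of RPM + 0.5) against -0.16 over all events. Scaling by size factors moved the median of all events by 0.16 to about 0. Under that scaling 46 members were called, 44 of them lower and all 44 among the 61, with a median of -0.35 for the members, where 47.6% of all events were called (24.2% lower and 23.4% higher). In bulk tissue, fewer cells of a type and less RNA per cell cannot be told apart. Reads that fit neither isoform are left out of this measure. When they were counted too, 58 of the 61 events called lower remained so, where 35.4% of all events were then called lower. The change then moved by more than 1.5 times in 7 of the called events, those of Mrpl49, Cox19, Atp5o and Atp5s (100 nt) and 3 of Timm9. It also moved so in 3 events that were not called, of Slc25a36 (82 nt), Atp5s (111 nt) and Mrps18b (67 nt), which were then called lower with log2 changes of -2.50, -1.03 and -1.20. Without Control A the count fell to 34 and without Control B to 38, and each then rests on 1 Control library that is assumed to vary like the others.

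**Figure D3:**
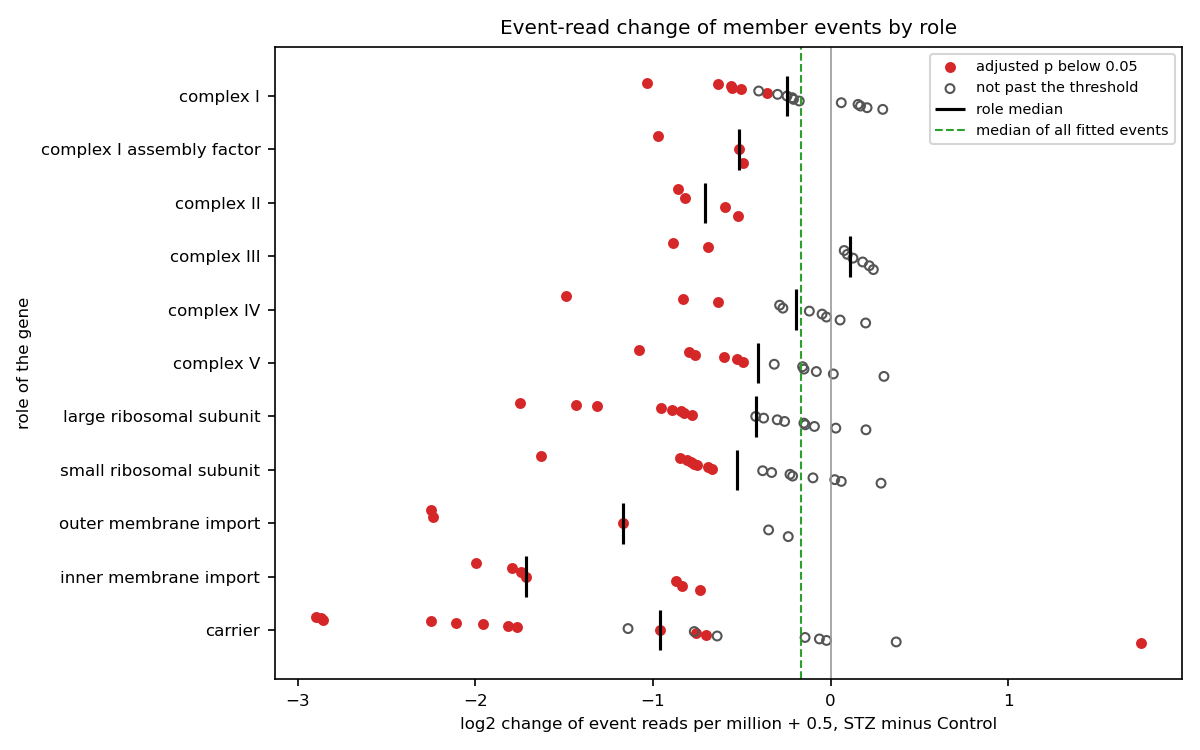
Log2 change of event RPM + 0.5, STZ minus Control (horizontal axis), for the 118 fitted member events by role, filled red where the adjusted p was below 0.05, with a black bar at each role's median. The green dashed line is the median of all fitted events, and the import and carrier rows extend farthest to the left.

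Most of the Timm and Tomm genes with a fitted event had an event called lower on total scaling. All 7 inner membrane import events, of 4 genes, were called lower, with a median of -1.71, and size factors left 6 of them. With all 4 read classes the 7 were called lower with a median of -0.81. Most of the 7 events are of Timm9 and share reads, so both medians are values of Timm9 and do not describe the 4 genes alike. The log2 change was -0.87 in Timm10 and -0.74 in Timm17b. Timm22, the channel of the TIM22 complex that inserts carriers, fell from 107 and 95.8 to 21.6, 23.8 and 30.1 RPM (log2 change -2.00 ± 0.19 SE, limma adjusted p = 0.00016). Event reads of the 292-nt event of Timm9 fell from 108 and 94.1 to 33.9, 25.4 and 32.5 RPM, while reads that fit neither isoform rose from 50.1% and 48.7% of its reads to 75.6%, 76.4% and 69.9%. With all 4 classes it went from 116 and 100.1 to 70.6, 56.8 and 57.4 RPM (log2 change -0.81 in place of -1.71, limma adjusted p = 0.0042). Timm10, the partner of Timm9, fell from 453 and 447 to 213, 292 and 238 (limma adjusted p = 0.0027). In the outer membrane, Tomm5 fell from 1160.4 and 997 to 199, 238 and 242 RPM in its 50-nt event (log2 change -2.25 ± 0.15 SE, limma adjusted p = 5.2e-05), and Tomm22, a receptor of the TOM complex, from 226 and 200 to 88.2, 96.5 and 98.8. The groups were far apart in each of these genes. Tomm70a, the receptor for carrier proteins, had 141 and 150 against 145, 116 and 111 and was not called. Tomm20l was not called either (log2 change -0.35), so 2 of the 4 outer membrane genes had an event called lower.

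Carriers spanned the widest range, with a median of -0.96 over 19 events, 11 called lower (6 of 12 genes) and 1 higher. Over all events 28.9% were called lower and 17.9% higher. Genes with several events weigh more in the carrier median. Slc25a13 encodes citrin, the calcium-regulated aspartate-glutamate exchanger of the malate-aspartate shuttle. Its 140-nt event fell from 191 and 234 to 51.3, 22.5 and 20.5 RPM (log2 change -2.86 ± 0.36 SE, limma adjusted p = 0.00048), and its 3 events had log2 changes between -2.90 and -2.86. Slc25a12, the other exchanger of this kind and the main one of heart, had 86.7 and 107 against 140, 80.4 and 58.6 and was not called. The 72-nt event of Slc25a40 fell from 14 and 10.3 to 5.80, 1.82 and 1.78 (limma adjusted p = 0.0079), a call that was lost without Control A. Slc25a16 fell from 23.1 and 30.5 to 15.3, 11.9 and 13.2.

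Slc25a25 was the single member called higher. It encodes a calcium-regulated ATP-Mg/phosphate carrier, which adjusts the nucleotide pool of the matrix. Its event had 1.84 and 2.01 RPM in Control and 9.49, 7.16 and 6.53 in STZ (log2 change 1.75 ± 0.27 SE, limma adjusted p = 0.0012), and the call held without each library in turn. With 4 informative reads in Control A its Psi was not tested. Slc25a3 had overlapping groups, with 1919 and 2082 against 2490.2, 1693 and 1805 RPM.

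**Figure D4:**
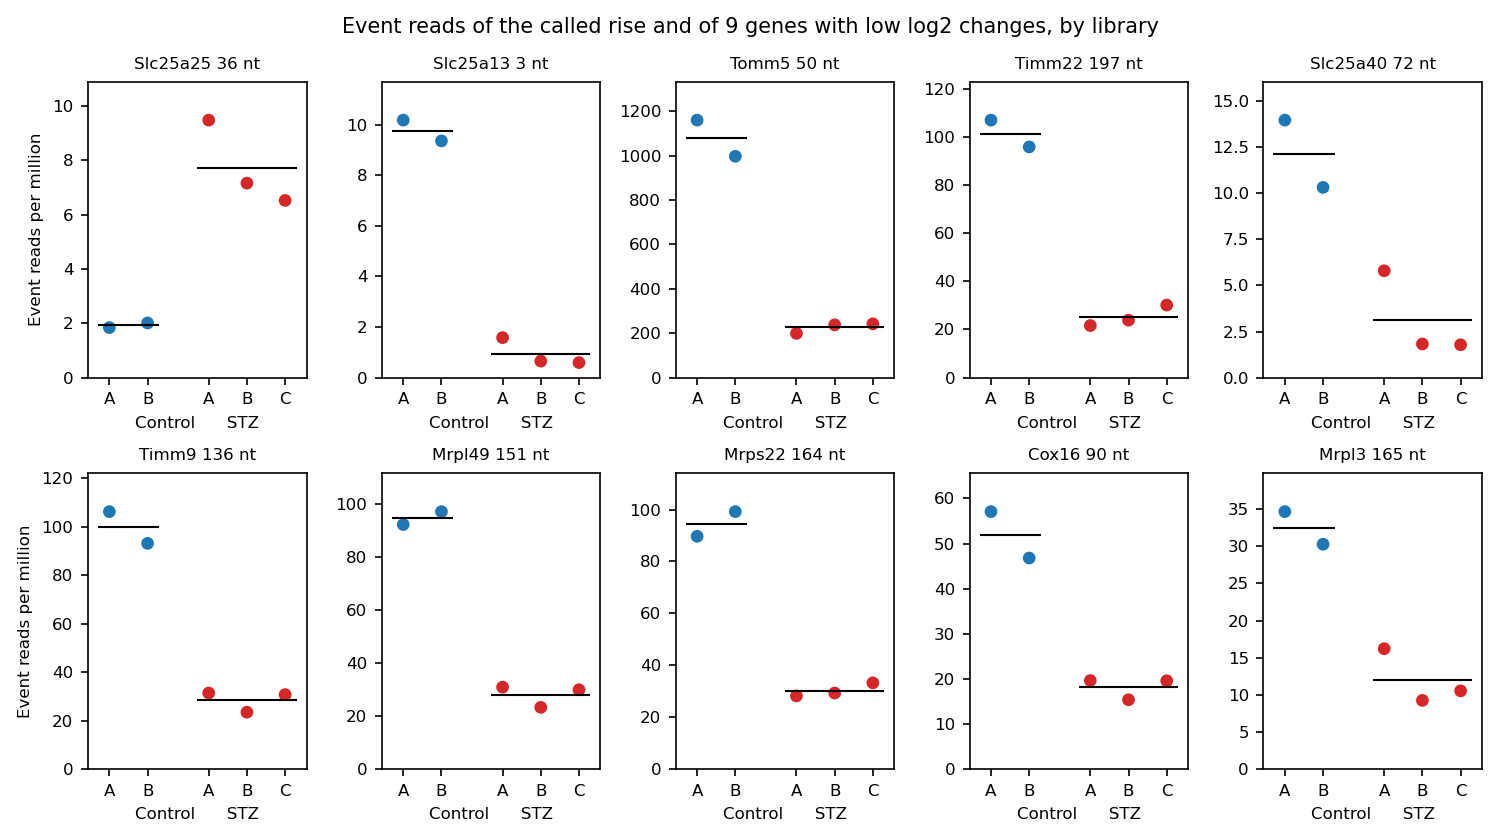
Event RPM (vertical axes from 0, each panel on its own scale) in each Control (blue) and STZ (red) library, with a line at each group mean, for the called rise (Slc25a25) and 9 genes with low log2 changes. No panel has overlapping groups, and Mrpl49 was not called when reads that fit neither isoform were counted too.

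Genes with a mitochondrial ribosomal symbol were lower in part. Of 17 events with an Mrpl symbol 8 were called lower (7 of 14 genes, median -0.42), and of 16 with an Mrps symbol 8 (5 of 10 genes, median -0.53). The symbol alone set these groups. Mrps22 fell from 89.7 and 99.2 to 28.2, 29.3 and 33.2 RPM (limma adjusted p = 0.0002). Mrpl49 had 92.4 and 97.3 against 31.0, 23.3 and 30.0 RPM (log2 change -1.75 ± 0.18 SE, limma adjusted p = 0.00023), but its share of reads that fit neither isoform was 36.5% and 35.4% against 75.7%, 82.6% and 76.2%. With all 4 classes Mrpl49 had 78.3 and 82.1 against 64.8, 70.7 and 66.8 RPM and was not called (log2 change -0.25 ± 0.13 SE, limma adjusted p = 0.137). Mrpl3 fell from 34.7 and 30.3 to 16.2, 9.25 and 10.5, and Mrpl10 from 94.0 and 93.4 to 41.2, 35.8 and 35.2. Their groups did not overlap. Mrpl20 (127 and 123 against 126, 155 and 151), Mrpl52 and Mrps18a (74.9 and 77.2 against 68.9, 82.1 and 81.4) were not called. Size factors left 8 calls lower for Mrpl and 7 for Mrps symbols.

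Complex I had 6 of 17 events called lower on total scaling, in Ndufb5, Ndufs1 and Ndufs4, with a median of -0.25. Over all events 28.9% were called lower and the median was -0.16, so complex I lay near the background. Ndufs4, an accessory subunit of the electron input arm, fell from 1524 and 1440.2 to 861, 989.5 and 1024 RPM in its 74-nt event (log2 change -0.63 ± 0.13 SE, limma adjusted p = 0.0044). Under size factors the 104-nt event of Ndufs1 alone was called lower, and the 238-nt event of Ndufa3 (197 and 146 against 230, 195 and 202 RPM) was called higher. Of the assembly factor events, all 3 were called lower, and size factors left 1, in Ndufaf6, which had 33.5 and 30.1 against 14.2, 15.6 and 18.2 RPM.

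All 4 complex II events, of Sdhb, Sdhc and Sdhd, were called lower, 3 of them also under size factors. Complex II links the respiratory chain to the citric acid cycle. The 134-nt event of Sdhb fell from 2251 and 2095 to 1235, 1159.9 and 1195 RPM (log2 change -0.86 ± 0.11 SE, limma adjusted p = 0.00066). In complex III, Uqcrc2, a core subunit, fell from 1259.6 and 1428 to 876, 685 and 634 (150-nt event, limma adjusted p = 0.0027), while the 5 events of Uqcrh and that of Uqcr10 were not called and had log2 changes between 0.08 and 0.24. In complex IV the 3 called genes were not structural subunits: Cox16 is an assembly factor, and Cox17 and Cox19 are copper-handling proteins. Cox16 fell from 57.1 and 46.8 to 19.6, 15.4 and 19.6 RPM (limma adjusted p = 0.00066). Cox4i1, Cox5b, Cox6a1, Cox6b1, Cox7a2l and Cox8a had log2 changes between -0.29 and 0.20 and were not called. When reads that fit neither isoform were counted too, the Cox19 change was 0.01 and Cox17 missed the threshold (log2 change -0.48, limma adjusted p = 0.057). Cox6a1, a structural subunit, was then called lower (log2 change -0.52, limma adjusted p = 0.0345).

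In complex V, taken by the Atp5 symbol, 6 of 12 events were called lower, of Atp5j2, Atp5k, Atp5o, Atp5s and Atp5sl. Size factors left 2, of Atp5s and Atp5sl. The Atp5o event is that of Cryzl1 by length, as said above. Atp5sl is an assembly factor of complex I and Atp5s is now Dmac2l. The calls of Atp5j2 (limma adjusted p = 0.108) and Atp5k (limma adjusted p = 0.206 and limma adjusted p = 0.203) did not hold under size factors. Atp5l had 6898 and 7098 against 7223, 9445 and 9371 RPM, Atp5d 3288 and 3259.6 against 2574, 3492.5 and 4027, and Atp5c1 710 and 608 against 522, 623 and 736, and none was called.

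Other genes of the same organelle were taken from 5 lists. Of 51 tested events, 3 were called on Psi, fewer in proportion than the 15% of all tested events. These 3 were lower and of aminoacyl-tRNA synthetases that charge mitochondrial tRNAs. Hars2 (243 nt) went from 0.85 and 0.89 to 0.72, 0.74 and 0.72 (limma adjusted p = 0.0291), and Tars2 (218 nt) from 0.96 and 1 to 0.80, 0.75 and 0.73 (limma adjusted p = 0.0479). The third was a 144-nt exon of Tars2. Of these 3, only the 218-nt exon of Tars2 also passed on the log ratio of reads (limma adjusted p = 0.0066). The log ratio of Hars2 was 0.06 (limma adjusted p = 0.947), so its reads did not show the fall in Psi. The 144-nt exon of Tars2 did not pass either (limma adjusted p = 0.184). On event reads, where 28.9% of all events were called lower and 17.9% higher, 11 of 15 events of assembly and cofactor genes were called lower and 1 higher, 12 of 23 of mitochondrial genome expression lower, 3 of 10 of the citric acid cycle lower (near the background), and 1 of 2 of import and processing lower. Among the regulators, 3 of 4 events of Gabpb1, Nrf1 and Ppargc1b were called higher and 1 lower.

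Promoters of 69 of the 83 genes were found in RefSeq (GRCm38.p6, 250 bases before to 50 after a start site) and searched on both strands for letters that bind regulators of these genes. The ETS motif CCGGAAGT, bound by GABP, was in 14 of the 69 genes (20.3%) against 4.31% of 27025 genes. It was in 4 of 31 genes with an event called lower and in 10 of 38 others. The YY1 motif AAGATGGCG was in 7 of 69 (10.1%, against 1.64%), the NRF1 motif CGCATGCG in 6 (8.70%, against 2.07%) and the ERR motif TCAAGGTCA in 1 (1.45%, against 0.466%). No motif overlaps another in its letters. As an example, the 30 bases just before the start of Mrpl3 at chr9:105053238-105053267 (GRCm38.p6, plus strand) hold the ETS motif, in capitals.
Mrpl3: tgagaaacggaCCGGAAGTggcccggctgt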

How the data were processed

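RNA sequencing of mouse left ventricle was compared between 2 Control and 3 STZ libraries. Per the submitters' processing notes, CASAVA 1.8.2 and TopHat were used, with the build mm9. The tables are MISO comparisons of cassette exons, 1 library against another, per the file headers. The MISO version and event annotation are not stated in the sources used here. The authors deposited Psi as a fraction, rounded to 2 decimals. Reads are deposited by the authors as counts in 4 classes per event (inclusion only, exclusion only, both, neither), and the difference of Psi likewise (unit other). Their Bayes factor, a ratio, is also as the authors deposited it. Another 36 columns of per-library values were not used.

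Events were kept if present in all 6 tables. Psi was clipped to 0.01 and 0.99, put on the logit scale and fitted in limma 3.58.1 (R 4.3.3, two-sided, trend on reads) where each library had at least 10 informative reads. Event reads were fitted as log2(RPM + 0.5) where the mean was at least 1 RPM, where RPM is per 1000000 reads of the library that fit an isoform of any event. P-values were adjusted by Benjamini-Hochberg over all fitted events; the code was tested on simulated data. Named exons are those called or meeting the looser rule, the most-read exon of each role, untested exons moving by at least 0.30, the 5 largest rises and falls of event reads, and events sharing an exon with these. Exons called only on the read ratio, and further genes shown for event reads, were named after their values were seen. The values of 1 gene that the rule names are not reported here. Members and lists were chosen with earlier results of these data known. Intervals of single read shares are not given, and reads without molecular identifiers are not independent molecules. Columns carry codes rather than sample titles, so groups were taken from their sizes.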

Additional observations from a re-analysis of the deposited data

How the results depend on the processing

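Of the member exons, 6 were called on Psi. The count was 8 with clipping at 0.001, 5 at 0.05, 6 with at least 20 informative reads, 7 with no minimum and 7 with array weights. It was 17 with the log ratio of inclusion-only to exclusion-only reads and 0 under the rule on the authors' deposited tables, and it ranged from 1 to 8 when 1 library was left out. On event reads, 62 members were called, and the count was 70 with reads of all 4 classes, 46 with size factors, 62 with a pseudocount of 2, 56 with no filter and 84 with array weights, and it ranged from 34 to 83 when 1 library was left out. The median Psi difference of 0 was -4.7e-05 with read shares and 0 with every other setting, leaving out each library included. The 112-nt event of Cox19 changed direction with all 4 classes, from -0.83 to 0.0101. No paired analysis was possible because the columns carry no replicate number. The cause of these shifts was not tested. Psi to 2 decimals limits exons near 0 or 1.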
